A study of Mus musculus with 6 samples.

Results

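The expression of 8 small leucine-rich proteoglycans was followed through RNA sequencing of mesenchymal stromal cells from the endosteum, the inner surface of bone, of mice. The genes are Bgn, Dcn, Aspn, Fmod, Lum, Prelp, Omd and Ogn, 8 of the 55471 gene identifiers with values. They were chosen as members of one protein family in which Bgn and Dcn stood in opposite directions between the genotypes, so the difference of the members between the genotypes is described here and not tested. The libraries were 3 labelled Bap1 cKO, from mice with Prx1-cre and the floxed Bap1 allele (Prx1-cre;Bap1fl/fl), and 3 labelled Bap1 WT, whose mice carry the floxed allele as well (Bap1fl/fl). All were C57BL/6J, and the labels give no age and no pooling. Prx1 drives Cre in the mesenchyme of the limb bud, so the deletion is meant for limb stromal cells and not for every cell of the marrow. Bap1 encodes a deubiquitinase that acts on histone H2A, and the study asks what its loss does to the stromal niche of lymphocyte formation. Nothing in the labels ties the libraries of a group to different animals, and the p-values therefore cover library-to-library spread alone, which may be technical.

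Small leucine-rich proteoglycans are secreted proteins whose core is a curved stack of leucine-rich repeats. The core binds collagen fibrils and sets their diameter and spacing, and it holds growth factors such as TGF-beta in the matrix. Biglycan and decorin carry chondroitin or dermatan sulfate chains, while fibromodulin, lumican, osteomodulin and mimecan can carry keratan sulfate. In bone, biglycan is a major proteoglycan of the matrix, and mice without it form less bone. Decorin is the usual major member in skin, tendon and connective tissue fibroblasts.

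Levels are given as RPKM, a fragment count normalised by the authors for gene length and library depth. Estimated depth was 13360000 to 22630000 fragments in the cKO-labelled libraries and 13440000 to 15110000 fragments in the WT-labelled libraries, and 3 fragments, the floor used here, were worth 0.133 to 0.225 RPKM on 1 kilobase. The floor covers counting error only. Bap1 itself stood at 28.27, 25.16 and 22.99 RPKM in the libraries labelled cKO and at 22.8, 22.72 and 24.01 RPKM in those labelled WT (limma Benjamini-Hochberg adjusted p = 0.29). A sum over the whole gene cannot show a loss of the floxed exons, so it does not check the labels. Of 12 mesenchymal stromal markers, 9 in the cKO-labelled group and 11 in the WT-labelled group averaged 1 RPKM or more. Their summed level was 741.64 to 1509.91 RPKM in the libraries labelled cKO and 6634.62 to 7011.95 RPKM in those labelled WT. Vim made up most of that sum, at 589.79, 690.93 and 1306.65 RPKM in cKO replicates 1 to 3 and 5955.79, 5605.55 and 5767.19 RPKM in WT replicates 1 to 3. Of the 11 markers tested, 7 were lower and 1, Pdgfra, was higher in the libraries labelled cKO. Over all 12223 genes tested, 26.5% were lower and 34.7% higher at a limma Benjamini-Hochberg adjusted p under 0.05. Prrx1 and Twist1 were present in both groups, while Lepr stayed at or below 0.14 RPKM in every library and Thy1 was listed at 0 in cKO replicates 1 and 2. The osteoblast factor Sp7 was at or below 0.78 RPKM in every library, and the 12 osteoblast markers summed to 449.72 to 677.94 RPKM in the libraries labelled cKO and 3427.51 to 3643.96 RPKM in those labelled WT. The 10 blood cell markers summed to at most 1.86 RPKM in any library.

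Bgn encodes biglycan (chromosome X, 73483602 to 73495933, GRCm38, plus strand, 8 exons). It stood at 8.91, 0.64 and 36.23 RPKM in the libraries labelled cKO, against 1822.23, 1770.01 and 1752.52 RPKM in those labelled WT. Each WT-labelled library held more Bgn than any cKO-labelled one, and the WT-labelled values lay within a factor of 1.04 of each other. The cKO-labelled values were spread over a factor of 56.6, with replicate 3 highest and replicate 2 lowest. The group means were 15.3 ± 18.6 and 1782 ± 36.3 RPKM in the libraries labelled cKO and WT (SD, n = 3 each), a ratio of 117, or 373 without cKO replicate 3. In the libraries labelled WT, Bgn ranked 51st, 54th and 51st among all genes by RPKM, against ranks 7500, 12519 and 2888 in the libraries labelled cKO. The 8 smooth muscle markers were also highest in cKO replicate 3, with summed levels of 165.56, 297.16 and 3179.64 RPKM in cKO replicates 1 to 3 and 2756.01 to 3088.89 RPKM in the WT-labelled libraries. On that list 2 of 6 tested genes were lower in the cKO-labelled libraries, where 26.5% of all genes tested were lower. The part of that list in the Bgn values was not tested. In bulk RNA, fewer cells of a type and less RNA per cell cannot be told apart.

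Dcn encodes decorin (chromosome 10, 97479609 to 97518143, GRCm38, plus strand, 8 exons), the closest relative of biglycan in the family. It stood at 131.45, 170.63 and 79.25 RPKM in the libraries labelled cKO and was listed at 0 in each library labelled WT. A floor of 3 fragments on its longest coding transcript would have been 0.0824 to 0.14 RPKM. No ratio is given against a group listed at 0. Across the cKO-labelled libraries Dcn and Bgn ran in opposite order, with replicate 2 highest in Dcn and lowest in Bgn and replicate 3 the reverse. The ratio of Dcn to Bgn was 14.8, 267 and 2.19 in cKO replicates 1 to 3. Markers of tendon and fibroblasts, tissues in which decorin is abundant, summed to 169.35 to 193.55 RPKM in the libraries labelled cKO and 36.32 to 40.21 RPKM in those labelled WT. Of the 5 tested among those 10 markers, 3 were higher and 1 was lower in the cKO-labelled libraries. Among all genes tested, 34.7% were higher and 26.5% lower. The tendon marker Tnmd and the fibroblast marker Pi16 were at or below 0.15 RPKM in every library. Scx and Egr1 carried most of that sum, and the other 8 markers summed to 9.84, 13.08 and 6.40 RPKM in cKO replicates 1 to 3 against 19.09, 16.94 and 17.29 RPKM in WT replicates 1 to 3. Fbln1, a matrix gene of fibroblasts, fell 7.48-fold (limma Benjamini-Hochberg adjusted p = 0.000375). At 15.04, 13.99 and 14.67 RPKM in WT replicates 1 to 3, it made up most of the sum of those 8 there. Col14a1, another of the 8, went the other way, at 6.8, 9.29 and 2.24 RPKM in cKO replicates 1 to 3 against 0.43, 0.34 and 0.29 RPKM in WT replicates 1 to 3. Dpt, Mfap5 and Fap, also fibroblast markers, were at most 0.12 RPKM in the libraries labelled cKO and at most 1.11 RPKM in those labelled WT. The part of these cells in the Dcn values was not tested.

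Aspn encodes asporin (chromosome 13, 49544443 to 49567565, GRCm38, plus strand, 8 exons), the third member of the biglycan and decorin class, which binds TGF-beta and collagen. It stood at 0, 0.03 and 0 RPKM in the libraries labelled cKO and at 6.08, 7.92 and 5.77 RPKM in those labelled WT. The groups did not overlap, and the cKO-labelled values lay under the floor of 3 fragments, 0.0608 to 0.103 RPKM, so no ratio is given. Within this class the libraries labelled cKO thus held Dcn and little Bgn or Aspn, and those labelled WT held Bgn and Aspn with Dcn listed at 0.

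**Figure D1:**
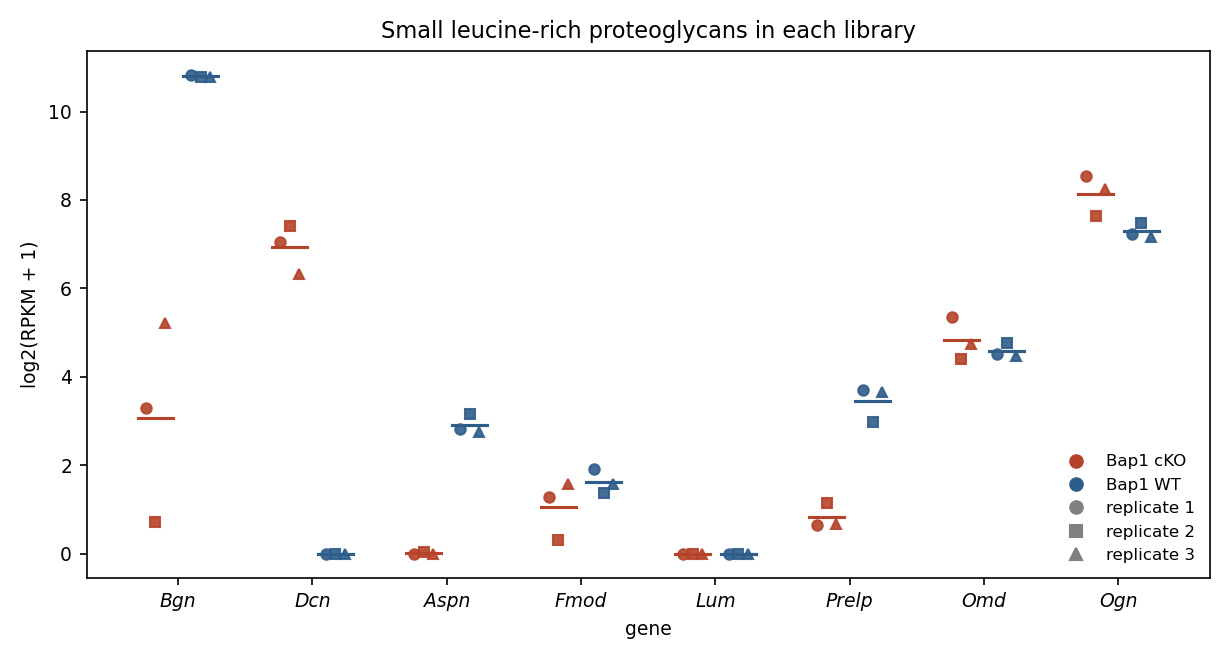
Level of each of the 8 genes on the log2(RPKM + 1) scale, with 1 point per library, marker shape for the replicate number and a line at the mean of 3 libraries. Bgn lies near 11 in the WT-labelled libraries and is spread in the cKO-labelled ones, Dcn is at 0 in the WT-labelled libraries, and Omd and Fmod overlap between the groups.

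In the fibromodulin class, Prelp was lower in the libraries labelled cKO, Fmod and Omd overlapped between the groups, and Lum was listed at 0 throughout. Prelp, the proline- and arginine-rich member that links basement membranes to collagen (chromosome 1, 133910304 to 133921414, GRCm38, minus strand, 3 exons), stood at 0.56, 1.23 and 0.59 RPKM in the libraries labelled cKO and at 12.12, 6.95 and 11.68 RPKM in those labelled WT. The groups did not overlap, with means of 0.793 ± 0.378 and 10.2 ± 2.87 RPKM (SD, n = 3 libraries each, cKO-labelled and WT-labelled) and a ratio of 12.9. Fmod, fibromodulin, which modulates fibril assembly in tendon and cartilage (chromosome 1, 134037254 to 134048277, GRCm38, plus strand, 3 exons), stood at 1.43, 0.25 and 1.97 RPKM in the libraries labelled cKO and at 2.77, 1.6 and 2.01 RPKM in those labelled WT. Its groups overlapped, since cKO replicate 3 lay above WT replicate 2. Lum, lumican, which organises corneal and dermal collagen (chromosome 10, 97565128 to 97572703, GRCm38, plus strand, 3 exons), was listed at 0 in every library. None of 74 cytosolic ribosomal protein genes was listed at 0 in any library.

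Omd and Ogn, neighbours on chromosome 13, were detected well above the floor in every library. Omd encodes osteomodulin, also called osteoadherin, a member found in mineralised tissue (chromosome 13, 49582462 to 49592822, GRCm38, plus strand, 4 exons). It stood at 39.71, 20.24 and 25.93 RPKM in the libraries labelled cKO and at 21.84, 26.22 and 21.08 RPKM in those labelled WT, and the groups overlapped. Ogn encodes mimecan, also called osteoglycin, which binds collagen and affects bone formation in mice (chromosome 13, 49608046 to 49624501, GRCm38, plus strand, 7 exons). It stood at 369.29, 197.93 and 302.76 RPKM in the libraries labelled cKO and at 148.5, 176.83 and 143.26 RPKM in those labelled WT, with every cKO-labelled value above every WT-labelled one. The means were 290.0 ± 86.4 and 156 ± 18.1 RPKM in the libraries labelled cKO and WT (SD, n = 3 each), a ratio of 1.86. Omd and Ogn kept the same order over the replicates of each group: replicate 1 was highest and replicate 2 lowest in both genes among the cKO-labelled libraries, and replicate 2 was highest and replicate 3 lowest among the WT-labelled ones. The ratio of Ogn to Omd was 9.3, 9.78 and 11.7 in cKO replicates 1 to 3, against 6.8, 6.74 and 6.8 in WT replicates 1 to 3. Both genes went up and down together between libraries of a group, with Ogn further above Omd in each library labelled cKO.

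Of the 8 members, 7 averaged 1 RPKM or more over all 6 libraries, the minimum for testing across genes, and Lum did not. Aspn and Prelp passed that minimum through the WT-labelled group alone, and Dcn through the cKO-labelled group alone. The groups did not overlap in 5 of the 7, with 2 higher (Dcn and Ogn) and 3 lower (Bgn, Prelp and Aspn) in the libraries labelled cKO. Among all 12223 genes past that minimum, the groups did not overlap in 69.0%, with 39.2% higher and 29.8% lower, and 61.2% passed the limma test in either direction. Since the members were chosen on this contrast, nothing is read from their count. The median difference over the tested genes of a chromosome was −0.14 for chromosome 1, 0.19 for chromosome 10, 0.13 for chromosome 13 and −0.12 for the X chromosome, on the log2(RPKM + 1) scale. Medians of chromosomes without members are not given here, and some were further from 0. With each chromosome centred on its median, Tsku and Tgfb1 on chromosome 7 moved from −0.55 and 0.70 to −1.19 and 0.05. Podnl1 on chromosome 8 moved only from −5.28 to −5.22.

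The summed level of the 8 genes was 463 ± 81.4 RPKM in the libraries labelled cKO and 1980 ± 39.5 RPKM in those labelled WT (SD, n = 3 each). Biglycan alone made up 1.62, 0.164 and 8.11% of that sum in cKO replicates 1 to 3, against 90.5, 89 and 90.5% in WT replicates 1 to 3. In the libraries labelled cKO, Ogn made up 67, 50.6 and 67.8% and Dcn 23.8, 43.6 and 17.7%. Ogn made up 7.38, 8.89 and 7.4% in the libraries labelled WT. Without Bgn, the other 7 genes summed to 448 ± 82.6 RPKM in the libraries labelled cKO and to 198 ± 18.8 RPKM in those labelled WT (SD, n = 3 each). Mimecan was thus the most abundant member in each cKO-labelled library, and biglycan in each WT-labelled one.

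**Figure D2:**
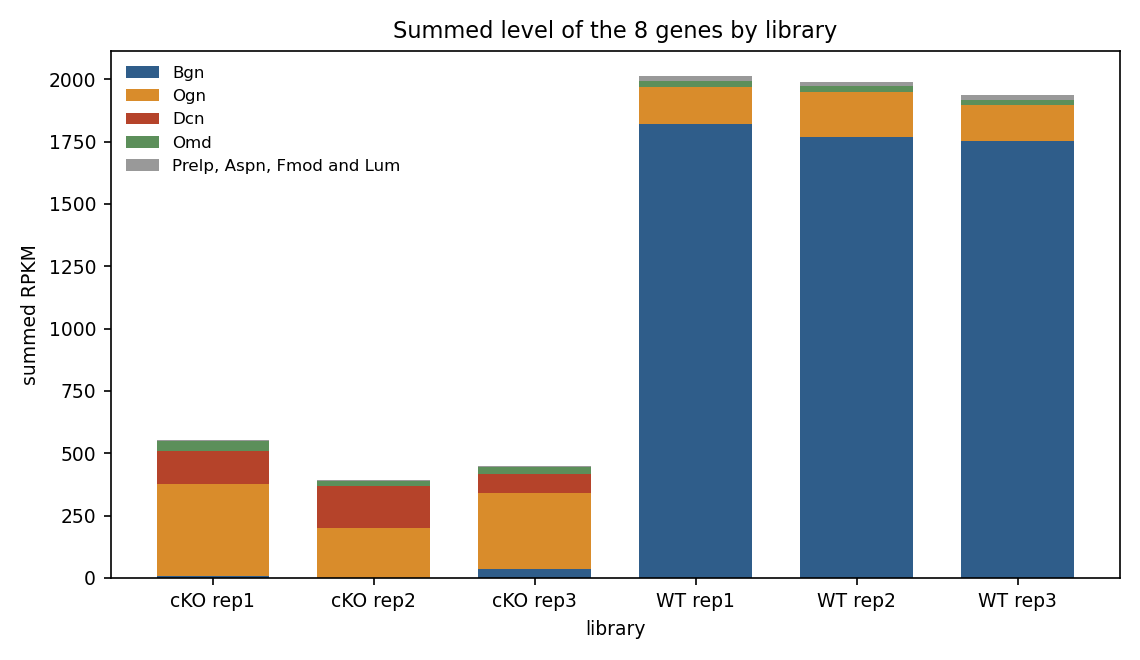
Summed RPKM of the 8 genes in each of the 6 libraries, stacked by gene. The WT-labelled bars reach 1936.32 to 2013.54 RPKM and are mostly Bgn, while the cKO-labelled bars reach 390.95 to 551.35 RPKM and are mostly Ogn and Dcn.

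Several members lie in clusters of the family, and neighbours did not share one direction. On chromosome 13, Aspn, Omd and Ogn lie within 80.1 kilobases, in this order and on the same strand, after Ecm2, a matrix gene with leucine-rich repeats. Ecm2 stood at 0.26, 0.2 and 0.18 RPKM in the libraries labelled cKO and at 1.2, 1.87 and 1.33 RPKM in those labelled WT, and its mean was under the minimum for testing. Along the chromosome, Ecm2 and Aspn were thus lower, Omd overlapped and Ogn was higher in the libraries labelled cKO. Cenpp, a kinetochore gene on the opposite strand, spans all of them and stood at 10.02, 14.54 and 12.37 RPKM in the libraries labelled cKO and 11.83, 11.04 and 10.33 RPKM in those labelled WT (limma Benjamini-Hochberg adjusted p = 0.462). The kit marks strand, but how the authors counted strand is not given in the sources used here, so reads of Cenpp and of the genes within it may not have been told apart. Nol8, the next gene, rose by 0.54 ± 0.08 on the log2(RPKM + 1) scale (SE, limma Benjamini-Hochberg adjusted p = 0.00155, higher in 3 of 3 libraries).

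On chromosome 10, Dcn and Lum lie within 93.1 kilobases, followed by Kera (keratocan) and Epyc (epiphycan). Dcn was the only one of these 4 genes with a value above 0 in any library. On the other side Btg1, an antiproliferative gene, stood at 45.39, 28.97 and 41.41 RPKM in the libraries labelled cKO and 48.54, 48.3 and 45.99 RPKM in those labelled WT (limma Benjamini-Hochberg adjusted p = 0.132). On chromosome 1, Prelp and Fmod lie within 138 kilobases next to Optc (opticin), which was at or below 0.35 RPKM in every library, and Btg2 beside Fmod did not pass (limma Benjamini-Hochberg adjusted p = 0.844). Bgn lies outside these clusters. Its neighbour Haus7, a spindle gene, stood at 11.77, 13.25 and 18.72 RPKM in the libraries labelled cKO and 45.56, 39.88 and 40.29 RPKM in those labelled WT, a fall by 1.48 ± 0.17 on the log2(RPKM + 1) scale (SE, limma Benjamini-Hochberg adjusted p = 0.000432). Atp2b3, on the other side, was at or below 0.17 RPKM in every library.

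**Figure D3:**
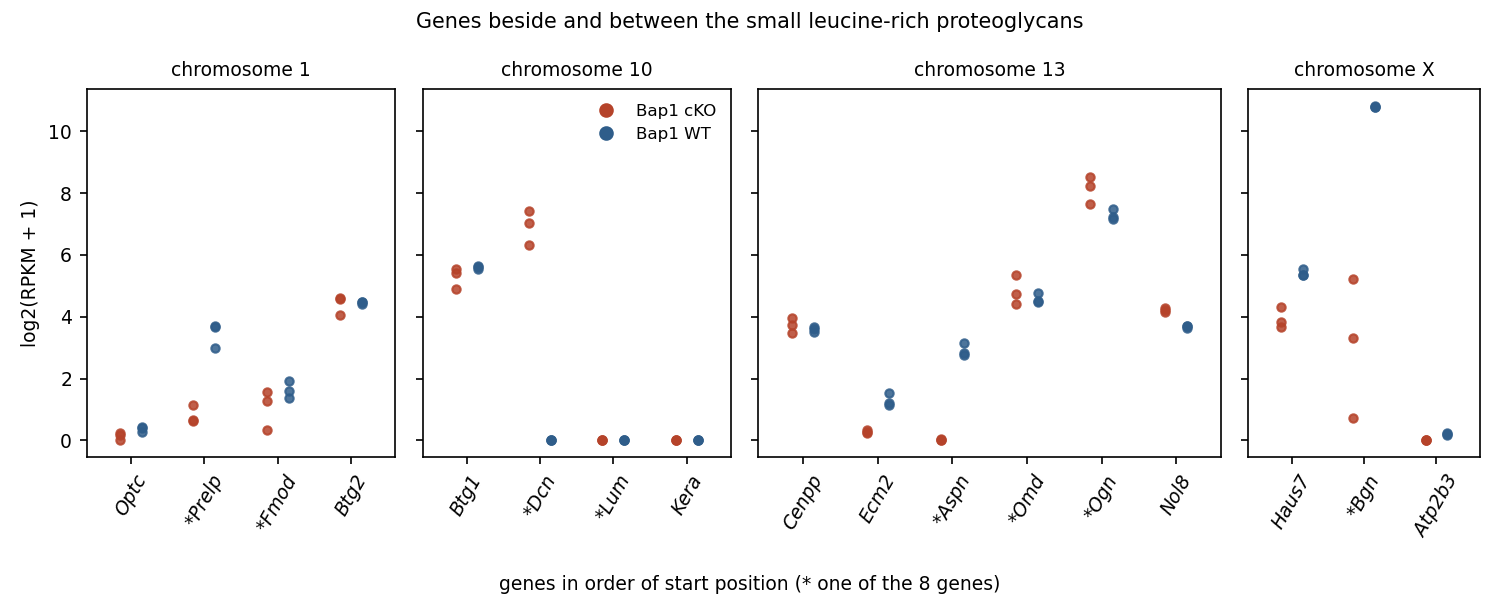
Genes in order of start position around the members on chromosomes 1, 10, 13 and X, each with 3 libraries labelled cKO on the left and 3 labelled WT on the right, on the log2(RPKM + 1) scale. Beside Dcn, Lum and Kera are at 0 in both groups, and from Ecm2 to Ogn the genes of chromosome 13 pass from lower to higher in the cKO-labelled libraries.

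The promoter windows of Bgn and of the chromosome 13 trio are shown because Bgn carried the largest difference in RPKM and the trio differ in direction as neighbours. RefSeq windows on GRCm38.p6 hold 250 bases before and 50 after the annotated start, printed 5′ to 3′ on the gene's strand. Capitals mark matches, on either strand, to the TATA box (letters TATAAA), the GC box (letters GGGCGG), the AP-1 site (letters TGANTCA) or the RUNX core (letters TGTGGT).
Bgn (chrX:73483351-73483650): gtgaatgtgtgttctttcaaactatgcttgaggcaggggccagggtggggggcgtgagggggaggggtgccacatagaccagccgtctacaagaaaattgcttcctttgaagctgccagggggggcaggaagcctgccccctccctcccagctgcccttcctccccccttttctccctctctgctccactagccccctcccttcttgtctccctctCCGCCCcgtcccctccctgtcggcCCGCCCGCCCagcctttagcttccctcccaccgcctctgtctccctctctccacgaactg
Aspn (chr13:49544193-49544492): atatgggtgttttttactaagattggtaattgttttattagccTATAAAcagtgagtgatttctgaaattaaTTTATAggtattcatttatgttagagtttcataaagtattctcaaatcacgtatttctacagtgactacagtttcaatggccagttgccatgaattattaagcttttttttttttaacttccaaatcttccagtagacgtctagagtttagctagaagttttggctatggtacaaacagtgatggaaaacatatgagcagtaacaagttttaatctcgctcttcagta
Omd (chr13:49582212-49582511): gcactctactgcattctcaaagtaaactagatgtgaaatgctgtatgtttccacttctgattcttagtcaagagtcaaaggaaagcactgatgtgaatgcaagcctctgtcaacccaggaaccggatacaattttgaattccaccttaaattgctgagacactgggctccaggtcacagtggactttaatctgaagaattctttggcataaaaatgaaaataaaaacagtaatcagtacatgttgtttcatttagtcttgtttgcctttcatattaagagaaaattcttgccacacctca
Ogn (chr13:49607765-49608064): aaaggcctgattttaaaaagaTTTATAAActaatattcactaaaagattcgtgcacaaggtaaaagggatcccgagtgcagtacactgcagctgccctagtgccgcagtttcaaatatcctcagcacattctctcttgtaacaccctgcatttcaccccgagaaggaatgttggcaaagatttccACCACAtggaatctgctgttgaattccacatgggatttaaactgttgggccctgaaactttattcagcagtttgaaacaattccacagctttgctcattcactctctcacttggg
The Bgn window held 3 GC box matches, of which the last 2 share bases, while 35.7% of all 32851 windows hold at least 1. Aspn and Ogn each held 2 TATA box matches, those of Ogn overlapping, where 13.6% of windows hold at least 1. They lay at bases 44 to 49 and 73 to 78 in Aspn and 22 to 27 and 24 to 29 in Ogn. These positions are far upstream of the annotated start, which follows base 250. Ogn also held 1 RUNX core match, where 16.8% of windows hold at least 1. The Omd window matched none of these letters, and none of the 4 windows matched the AP-1 letters, which 7.81% of windows hold. CG dinucleotides numbered 9 in the Bgn window and 3, 1 and 4 in the Aspn, Omd and Ogn windows, against a median of 7 over all windows. The windows of Prelp and Fmod held 7 and 3 and matched none of the 4 motifs. A match is a description of the letters and not a bound site.

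Other genes of the family were followed by their own test, since they were not members. At a Benjamini-Hochberg adjusted p under 0.05 in limma, 34.7% of all genes tested rose and 26.5% fell. Of 10 further family genes, 4 were tested, 2 rose and 2 fell, with a median difference of 0.19 beside 0.09 over all genes tested, on the log2(RPKM + 1) scale. Kera, Epyc and Chad were listed at 0 in all 6 libraries, and Nyx, Optc and Ecm2 were under the minimum.

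Podn and Podnl1, which encode podocan and podocan-like protein 1, are the related members of a further class, and they went in opposite directions. Podn stood at 75.16, 60.37 and 29.37 RPKM in the libraries labelled cKO and at 0.69, 0.71 and 0.95 RPKM in those labelled WT. Every cKO-labelled value lay above every WT-labelled one, a 70.2-fold higher mean and a log2 difference of 4.87 ± 0.33 (SE, limma Benjamini-Hochberg adjusted p = 5.48e-05). That difference was 4.43 with each chromosome centred on its median. Podnl1 stood at 0.04, 0.04 and 0.06 RPKM in the libraries labelled cKO and at 38.73, 37.97 and 42.19 RPKM in those labelled WT, and fell by 5.28 ± 0.10 on the log2(RPKM + 1) scale (SE, limma Benjamini-Hochberg adjusted p = 5.21e-07). Both genes passed the minimum mean through 1 group alone. Chadl, a chondroadherin-like gene of cartilage, rose 3.08-fold to 2.44 ± 0.856 RPKM in the libraries labelled cKO, against 0.793 ± 0.299 RPKM in those labelled WT (SD, n = 3 each; limma Benjamini-Hochberg adjusted p = 0.0115). The 10 chondrocyte markers summed to 128.73 to 251.28 RPKM in the libraries labelled cKO and 84.46 to 93.32 RPKM in those labelled WT. Col11a1 and Col2a1 carried most of that sum. Col11a1 stood at 212.59, 67.9 and 127.23 RPKM in the libraries labelled cKO and at 2.26, 2.78 and 2.17 RPKM in those labelled WT. Col2a1 stood at 19.23, 43.69 and 93.74 RPKM against 80.57, 72.26 and 80.72 RPKM and did not pass (limma Benjamini-Hochberg adjusted p = 0.194). Of the 6 tested, 3 were higher (Col11a1, Sox9 and Cnmd) and 2 lower (Sox5 and Col10a1) in the libraries labelled cKO. Among all genes tested, 34.7% were higher and 26.5% lower. Acan was at most 0.21 RPKM in any library and Col9a1 was listed at 0 in all. The part of cartilage cells in the Chadl values was not tested. Tsku, tsukushi, an extracellular modulator of BMP and Wnt signalling, stood at 6.76, 7.77 and 11.04 RPKM in the libraries labelled cKO and 13.13, 12.16 and 12.72 RPKM in those labelled WT (limma Benjamini-Hochberg adjusted p = 0.0286). The call of Tsku was lost without any 1 of the WT-labelled libraries or of cKO replicates 1 and 2. Its log2 difference was −0.55, and −1.19 with each chromosome centred on its median.

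Enzymes that build the chains on these core proteins were mostly lower. Of 31 such genes 27 were tested, of which 17 fell and 3 rose, with a median log2 difference of −0.82. In the part that makes chondroitin and dermatan sulfate, the chains of biglycan and decorin, 10 of 14 tested genes fell. Csgalnact1, which starts the chondroitin chain, stood at 0.04, 0.04 and 0.76 RPKM in the libraries labelled cKO and at 39.24, 39.49 and 37.98 RPKM in those labelled WT (limma Benjamini-Hochberg adjusted p = 1.05e-05). Chst12, a chondroitin 4-sulfotransferase, fell 11.7-fold to 3.16 ± 0.964 RPKM in the libraries labelled cKO, against 36.9 ± 3.87 RPKM in those labelled WT (SD, n = 3 each; limma Benjamini-Hochberg adjusted p = 3.25e-05). Chst14, which sulfates dermatan, fell 2.9-fold (adjusted p = 0.000226 by limma with Benjamini-Hochberg adjustment). Dse, the epimerase that turns chondroitin into dermatan sulfate, was chosen after its values were seen. It stood at 5.65, 3.96 and 13.24 RPKM in the libraries labelled cKO and at 45.91, 43.78 and 46.91 RPKM in those labelled WT, a 5.98-fold lower mean that was 9.48-fold lower without cKO replicate 3.

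Genes for the linkage region, the sugar bridge to the core protein, did not move one way, with 2 higher and 2 lower of 6 tested. Xylt1, which adds the first xylose, rose 3.75-fold to 4.22 ± 1.45 RPKM in the libraries labelled cKO, against 1.13 ± 0.0802 RPKM in those labelled WT (SD, n = 3 each; limma Benjamini-Hochberg adjusted p = 0.00206). Its log2 difference was 1.26, and 0.62 with each chromosome centred on its median, where the limma Benjamini-Hochberg adjusted p was 0.0403, the highest of its 17 alternatives. Its paralog Xylt2 stood at 7.55 ± 0.481 and 8.15 ± 0.33 RPKM in the libraries labelled cKO and WT and did not pass (limma Benjamini-Hochberg adjusted p = 0.404). B3galt6, a linkage galactosyltransferase, was 1.49-fold higher (limma Benjamini-Hochberg adjusted p = 0.0425), a call lost without any 1 library except cKO replicate 2. The B3galt6 call was also lost under 3 other scalings, with sample weights, with a replicate block and with no minimum mean. Its log2 difference turned to −0.06 with each chromosome centred on its median. For keratan sulfate, Chst1, the keratan sulfotransferase, stood at 0.09, 0.08 and 0.47 RPKM in the libraries labelled cKO and at 15.62, 12.97 and 15.44 RPKM in those labelled WT (limma Benjamini-Hochberg adjusted p = 1.18e-05), while the galactosyltransferase B4galt4 rose 3.07-fold (limma Benjamini-Hochberg adjusted p = 0.00867). In the supply of activated sulfate and sugar, 4 of 5 genes fell. The split of this list by step was made after the values were seen.

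Collagens that these proteins bind were lower in most cases, with 9 of 11 lower and 1 higher and a median log2 difference of −3.50. The lowest p-values belonged to Col6a2, Col1a2, Col6a1 and Col6a3, chains of collagen VI and collagen I. Col1a2 stood at 7.92, 21.22 and 8.07 RPKM in the libraries labelled cKO and at 994.81, 946.43 and 986.43 RPKM in those labelled WT, the same direction as Bgn. Its mean was 78.7-fold lower, and 122-fold lower without cKO replicate 2 (limma Benjamini-Hochberg adjusted p = 2.48e-05). Col14a1, a fibril-associated collagen that binds decorin, stood at 6.8, 9.29 and 2.24 RPKM in the libraries labelled cKO and at 0.43, 0.34 and 0.29 RPKM in those labelled WT, a 17.3-fold higher mean (limma Benjamini-Hochberg adjusted p = 0.00342) in the same direction as Dcn. Col14a1 is also on the list of tendon and fibroblast markers given beside Dcn.

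Growth factors, receptors and proteases that act with these proteins went both ways. Of 28 genes 22 were tested, 7 rose and 13 fell, with a median log2 difference of −1.38. Among receptors, Met, a receptor to which decorin binds, rose 3.88-fold to 38.4 ± 4.45 RPKM in the libraries labelled cKO, against 9.9 ± 1.17 RPKM in those labelled WT (SD, n = 3 each; limma Benjamini-Hochberg adjusted p = 5.56e-05). Biglycan signals through the Toll-like receptors Tlr2 and Tlr4 with the co-receptor Cd14. Tlr4, chosen after its values were seen, stood at 13.73, 22.73 and 7.19 RPKM in the libraries labelled cKO and at 3.61, 4.66 and 4.35 RPKM in those labelled WT (limma Benjamini-Hochberg adjusted p = 0.0126). Over its 18 alternatives the adjusted p ran from 0.000572 to 0.0519, the highest with each chromosome centred on its median. Cd14 fell 5.82-fold to 2.05 ± 0.501 RPKM in the libraries labelled cKO, against 11.9 ± 0.741 RPKM in those labelled WT (SD, n = 3 each; limma Benjamini-Hochberg adjusted p = 6.58e-05). Tlr2, also chosen after its values were seen, stood at 1.17, 1.42 and 4.13 RPKM in the libraries labelled cKO and 5.21, 5.36 and 4.74 RPKM in those labelled WT, and its call (limma Benjamini-Hochberg adjusted p = 0.0307) was lost without any 1 library except cKO replicate 3. Its mean was 2.28-fold lower, and 3.94-fold lower without cKO replicate 3.

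Of the TGF-beta ligands, which several members hold in the matrix, Tgfb1 rose 1.68-fold (limma Benjamini-Hochberg adjusted p = 0.000905). Over its 18 alternatives the adjusted p ran from 0.000674 to 0.657, the highest with each chromosome centred on its median. Tgfb3, chosen after its values were seen, stood at 110.24, 85.18 and 256.3 RPKM in the libraries labelled cKO and at 29.64, 29.39 and 29.52 RPKM in those labelled WT. Its mean was 5.1-fold higher, and 3.31-fold higher without cKO replicate 3 (limma Benjamini-Hochberg adjusted p = 0.00284). The log2 difference of Tgfb3 was 2.15, and 1.57 with each chromosome centred on its median. Tgfb2, likewise chosen after its values were seen, stood at 34.22, 32.01 and 14.1 RPKM in the libraries labelled cKO and at 47.81, 44.88 and 43.15 RPKM in those labelled WT. The groups did not overlap for Tgfb2, whose limma Benjamini-Hochberg adjusted p was 0.0571 and ran from 0.00295 to 0.143 over the 18 alternatives. Bmp1, the protease that cleaves the propeptide of biglycan, fell 2.7-fold to 32.9 ± 2.61 RPKM in the libraries labelled cKO, against 88.8 ± 1.34 RPKM in those labelled WT (SD, n = 3 each; limma Benjamini-Hochberg adjusted p = 2.81e-05). Pcolce2, an enhancer of procollagen cleavage, stood at 0.09, 0.84 and 0.16 RPKM in the libraries labelled cKO and 10.31, 13.76 and 10.54 RPKM in those labelled WT (limma Benjamini-Hochberg adjusted p = 7.19e-05). Its mean was 31.8-fold lower, and 92.3-fold lower without cKO replicate 2. The collagenase Mmp13 was at most 0.07 RPKM in the libraries labelled cKO and at 4.12, 4.72 and 3.57 RPKM in those labelled WT (limma Benjamini-Hochberg adjusted p = 4.6e-05). Htra1, a secreted protease that degrades biglycan and decorin, rose 2.22-fold (adjusted p = 0.000143 by limma with Benjamini-Hochberg adjustment), a log2 difference of 1.10 that was 0.46 with each chromosome centred. Adamts4, an aggrecanase, rose 6.97-fold to 30.7 ± 13.4 RPKM in the libraries labelled cKO, against 4.4 ± 0.111 RPKM in those labelled WT (SD, n = 3 each; limma Benjamini-Hochberg adjusted p = 0.000995).

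Proteoglycans outside the family were mostly lower where they passed. Of 25 core protein genes 13 were tested, 7 fell and 2 rose, with a median log2 difference of −0.71. Gpc1, a cell-surface glypican, fell 18-fold to 9.31 ± 2.82 RPKM in the libraries labelled cKO, against 167 ± 14.6 RPKM in those labelled WT (SD, n = 3 each; limma Benjamini-Hochberg adjusted p = 1.67e-05). The large matrix proteoglycan Vcan (versican) fell 6.64-fold (limma Benjamini-Hochberg adjusted p = 0.00012). Tgfbr3, the betaglycan co-receptor, fell 9.72-fold (adjusted p = 1.49e-05 by limma with Benjamini-Hochberg adjustment). Sdc3, a syndecan, fell 22.7-fold, or 43.8-fold without cKO replicate 3 (limma Benjamini-Hochberg adjusted p = 0.00016). Cspg4 stood at 3.28, 5.2 and 5.65 RPKM in the libraries labelled cKO and at most at 0.04 RPKM in those labelled WT (limma Benjamini-Hochberg adjusted p = 0.000107). Agrn (agrin) was 1.38-fold higher (limma Benjamini-Hochberg adjusted p = 0.0271), a call lost without cKO replicate 1 or any 1 of the WT-labelled libraries, under 3 other scalings and with each chromosome centred, where the direction turned.

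**Figure D4:**
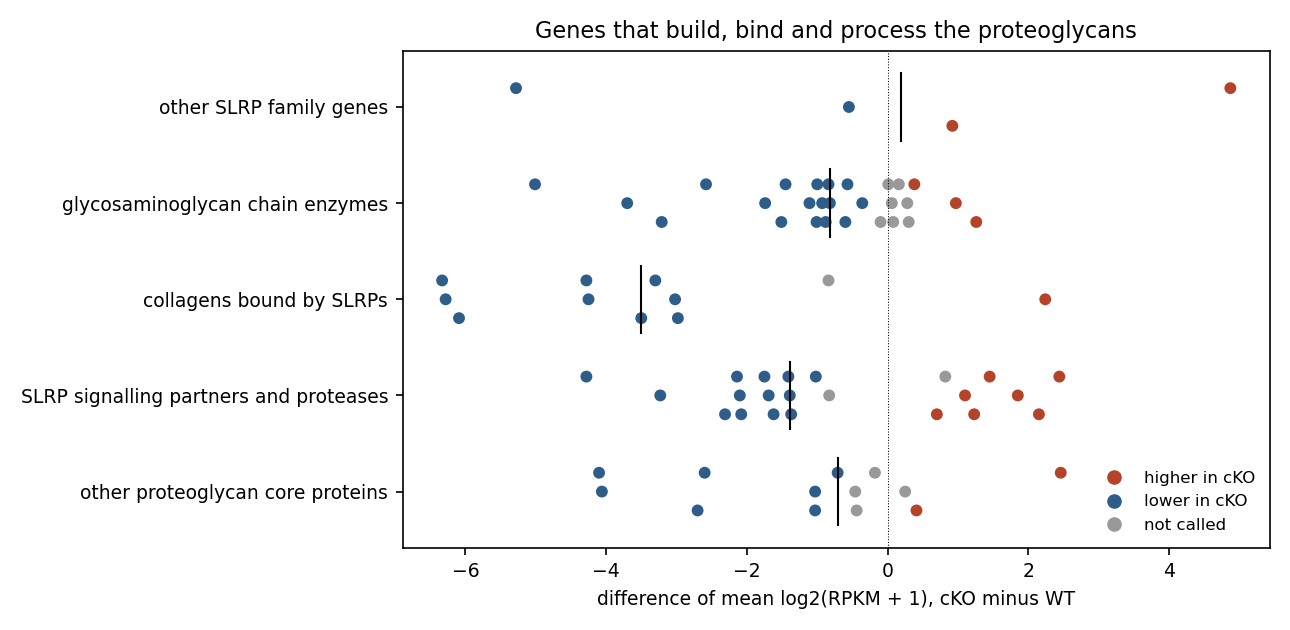
Difference of mean log2(RPKM + 1), cKO minus WT, for each tested gene of 5 lists around the proteoglycans (SLRP, small leucine-rich proteoglycan), with 1 point per gene, colour for the call and a black line at the median. The collagen list has its median at −3.50 with 1 gene to the right of 0, and Podn and Podnl1 stand at 4.87 and −5.28 in the top row.

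The genes most like Bgn and Dcn in pattern were ranked by Pearson's r of log2(RPKM + 1) over the 6 libraries among 11195 other protein-coding genes past the minimum. The points share the division into genotypes, so a high r is common, with 103 genes at or above 0.99 for Bgn and 500 for Dcn. Among the first for Bgn were Sec22b, Selenom, Tspan9 and Psrc1. Selenom, a selenoprotein of the endoplasmic reticulum, stood at 17.28, 6.43 and 31.22 RPKM in the libraries labelled cKO and at 223.66, 204.76 and 228.33 RPKM in those labelled WT, and like Bgn it was lowest in cKO replicate 2 and highest in cKO replicate 3 of its group. For Dcn the first were Pax8, Tomm5, Efna1, Plxdc1 and Rpl27. Pax8, a transcription factor of thyroid and kidney, stood at 180.94, 243.21 and 124.15 RPKM in the libraries labelled cKO and at 0.19, 0.21 and 0.12 RPKM in those labelled WT.

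Pax8 belongs to a list of 16 kidney epithelium markers, which summed to 132.56 to 252.24 RPKM in the libraries labelled cKO and 20.22 to 27.79 RPKM in those labelled WT. Pax8 made up most of the sum in the libraries labelled cKO. The other 15 genes summed to 9.85, 9.03 and 8.41 RPKM in cKO replicates 1 to 3 and to 20.03, 27.58 and 21.47 RPKM in WT replicates 1 to 3, the opposite direction. Among the genes tested, Pax8 was higher and Emx2 was lower in the libraries labelled cKO. Calb1 and Umod were listed at 0 in every library, and Epcam and Cdh1 were at or below 0.29 RPKM. The part of such cells in the Dcn values was not tested.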

How the data were processed

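RNA was taken up in TRIzol and sequenced as 151 bp pairs from stranded polyA libraries, per the labels' protocols. Per the submitters' processing notes, the genome was GRCm38 and the tools included RSEM 1.3.1, STAR 2.7.1a and cutadapt 2.8. The authors deposited RPKM values with 2 decimals for 55471 Ensembl identifiers, of which 55144 have a symbol in the gene-name table used. Coordinates and exons come from GENCODE M21 on GRCm38, which may not be the authors' annotation.

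Genes averaging 1 RPKM or more over the 6 libraries were tested on the log2(RPKM + 1) scale by a 2-sided limma fit (version 3.58.1, R 4.3.3) of genotype alone, with the prior variance trended on the mean. Benjamini-Hochberg adjusted p had to be under 0.05. Some genes passed the minimum through 1 group alone, the other group averaging under 1 RPKM. Beside those named above as such, they include Csgalnact1, Chst1, Mmp13, Pcolce2, Cspg4, Col14a1, Chadl, B4galt4 and Pax8. The procedure was tested on simulated data, but the outcome is not given here and is no check of the p-values. The groups differed in spread. On the log2(RPKM + 1) scale the SD of Bgn was 2.26 in the libraries labelled cKO and 0.03 in those labelled WT. Prelp and Aspn went the other way, at 0.29 and 0.02 against 0.40 and 0.21. The effect of such unequal spread on the limma fit was not tested. Low values of single-transcript genes of 800 to 3500 bp, less 150 bp, gave the depth, by the size of their steps. Of these values 75.7 to 93.5% lay within 0.2 of a whole fragment, where chance gives 40%. Ratios are of group means and were not formed against values under 3 fragments.

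The members and lists were chosen with earlier results of these data known. Named are the members, their neighbours, all other family genes, up to 4 called genes per list and direction with the smallest p, and the 5 genes most like Bgn and Dcn, of which not all are reported here. Others are said to be chosen after their values were seen. Wisp1 was counted under its symbol Ccn4. Alternatives were pseudocounts, minimum means, scalings, variance priors, sample weights, a replicate block, a fold minimum and leaving out each library. Centring each chromosome and splitting the chain enzymes by step were added after seeing the data. Tables and plots were made in Python 3.11.15.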

Additional observations from a re-analysis of the deposited data

How the results depend on the processing

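With an absolute log2 difference of at least 1 as a further condition, 1632 genes rose and 1499 fell, in place of 4237 and 3239. The other family genes then counted 1 higher and 1 lower, the chain enzymes 1 and 10, and the other proteoglycans 1 higher. With a minimum mean of 5 RPKM fewer genes were tested, and the higher genes numbered 1 in the family, 0 among the chain enzymes, 0 among the collagens and 1 among the other proteoglycans. The higher proteoglycans numbered 1 under quantile, TMM or median-of-ratios scaling and with the replicate block, since Agrn missed the threshold. Leaving out each library in turn gave 1 to 2 lower genes in the family and 1 to 2 higher proteoglycans. With each chromosome centred, 4 signalling partners and proteases and 1 proteoglycan were higher, and B3galt6 and Agrn turned to −0.06 and −0.03. Under the replicate block 3811 genes rose and 2938 fell, and B3galt6 also missed the threshold. Same-numbered libraries did not deviate together (r = −0.017, 0.05 and −0.019 across genes). With 3 libraries a group and no animals in the labels, this cannot exclude a pairing by litter or batch. Differences of Dcn and Aspn depend on the pseudocount, at 10.24 and −5.92 with 0.1 in place of 6.93 and −2.90 with 1. Those of Prelp and Fmod moved as well, to −3.57 and −1.07 with 0.1 in place of −2.63 and −0.57 with 1. The labels give 3 libraries a group, and an exact permutation test of a single gene could not reach 0.05.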
